A study of Homo sapiens with 6 samples.

Results

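The 10 genes described here belong to the BCL2 family: BCL2, BCL2L1, MCL1, BCL2L2, BAK1, BCL2L11, BID, BAD, PMAIP1 and BMF. They were taken by symbol from a table of 23228 genes, all 10 were found, and all 10 passed the filter on low counts that left 14504 genes for testing. RNA was sequenced from U2OS, a human osteosarcoma line, after transfection with siRNA against ALKBH5 (3 libraries) or with a scrambled control siRNA (3 libraries). Both groups received the same lipid reagent and were harvested at 48 hours. ALKBH5 is an enzyme that takes the methyl mark off N6-methyladenosine in RNA, and the comparison asks how transcript levels differ when it is depleted. One line, one time point and one control siRNA were compared, and no rescue was analysed here, so ALKBH5 loss cannot be told apart from other effects of these siRNAs. The labels number the replicates but do not say whether they were separate cultures, so each p-value reflects library-to-library spread alone, and that spread may be technical.

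Proteins of the BCL2 family decide at the outer mitochondrial membrane whether a cell starts apoptosis. Pro-survival members (BCL2, BCL-XL from BCL2L1, MCL1 and BCL-W from BCL2L2) hold the effectors BAK and BAX in check, and once free those effectors form pores through which cytochrome c leaves. BH3-only proteins are the sensors upstream: BIM (BCL2L11), BID, BAD, NOXA (PMAIP1) and BMF bind the groove of pro-survival proteins through a short helix, the BH3 domain, and BIM and BID can also activate the effectors directly. NOXA binds mainly MCL1, whereas BAD binds BCL2, BCL-XL and BCL-W.

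The bases that encode the core of this helix are shown because it is a stretch that all 10 members share, and in BH3-only proteins it is the part that enters the groove. They were found in GENCODE 29 reading frames (GRCh38) by a residue pattern of 8 codons: leucine or methionine, any 2 residues, a hydrophobic residue (alanine, isoleucine, valine, methionine, phenylalanine or leucine), a small residue (glycine, alanine or serine), aspartate, any residue, and a hydrophobic residue from the same set. Capitals mark the codon of the first residue and the aspartate codon.
BCL2: CTCcgccaggccggcGACgacttc
BCL2L1: CTGagggaggcaggcGACgagttt
MCL1: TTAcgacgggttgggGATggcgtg
BCL2L2: ATGcgggcagctggaGATgagttc
BAK1: CTCgccatcatcgggGACgacatc
BCL2L11: TTGcggcgtattggaGACgagttt
BID: CTCgcccaggtcgggGACagcatg
BAD: CTCcggaggatgagtGACgagttt
PMAIP1: CTCaggagatttggaGACaaactg
BMF: CTTcagtgcattgcaGACcagttc

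Each frame shown held the pattern once. For each member the longest complete frame that holds the pattern was used, which for PMAIP1 was not its longest frame. Among 19524 protein-coding genes, scanned by the longest complete frame alone, 7.92% held it, so it describes the family and does not define it. The run lies in coding exon sequence that no intron interrupts. In pro-survival genes it is at chr18:63318355-63318378 (minus strand, exon 1 of 2) for BCL2, chr20:31721928-31721951 (minus strand, exon 2 of 3) for BCL2L1, chr1:150578871-150578894 (minus strand, exon 1 of 3) for MCL1 and chr14:23307903-23307926 (plus strand, exon 3 of 4) for BCL2L2. That of the effector BAK1 is at chr6:33575393-33575416 (minus strand, exon 4 of 6). Among BH3-only genes it is at chr2:111150103-111150126 (plus strand, exon 3 of 4) for BCL2L11, chr22:17739421-17739444 (minus strand, exon 4 of 6) for BID, chr11:64271628-64271651 (minus strand, exon 2 of 3) for BAD, chr18:59902673-59902696 (plus strand, exon 2 of 2) for PMAIP1 and chr15:40104201-40104224 (minus strand, exon 4 of 5) for BMF. Of the 24 bases, pairs of members share from 7 (BCL2L2 and BID) to 17. The highest value, 17, is that of BCL2 and BCL2L1, of BAK1 and BID, and of BCL2L11 and BAD. The pattern itself restricts some of these bases, so part of the sharing follows from how the runs were found.

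For some members only part of the annotated coding transcripts held the run. Of these transcripts, incomplete ones included, 7 of 17 held it for BCL2L11, 5 of 11 for BID and 4 of 9 for BMF. All did for MCL1 (3 of 3) and BCL2 (3 of 3). A transcript that is annotated incompletely can lack the run for that reason alone. These counts match the 24 bases in any reading frame, so a transcript can hold the run without encoding the helix. PMAIP1 has a frame of 54 codons with the run at codons 29 to 36, and a longer frame of 136 codons in which the pattern was not found. Its coding transcripts nevertheless all held the bases (2 of 2). The counts are summed per gene, so transcripts with and without the helix are not separated in any value here, nor are the long and short forms of BCL2L1 and MCL1, which are known to act in opposite directions.

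ALKBH5 was depleted in each knockdown library: it stood at 19.4, 16.2 and 15.7 CPM (the read count scaled to library size, with edgeR's TMM factors) with ALKBH5 siRNA, against 138, 148 and 143 CPM with scrambled siRNA (log2 fold change -3.06, SE 0.10, adjusted p = 1.62e-09 in edgeR's quasi-likelihood test). Library depth was 19748583 to 19919797 reads in genes with ALKBH5 siRNA and 18817181 to 23410007 with scrambled siRNA. The share of uniquely placed reads outside genes was 17.9% ± 0.66 with ALKBH5 siRNA and 15.3% ± 0.23 with scrambled siRNA (SD, n = 3 each); its part in the results below was not tested. Of 7 mesenchymal and osteoblast markers 6 passed the filter, of which 3 were higher (50%) and 2 lower (33.3%). Among all tested genes 30.8% were higher and 30.8% lower. FN1, COL1A1 and RUNX2 were higher (log2 fold changes 1.07, 0.40 and 0.73), though the groups overlapped for RUNX2. VIM and SPARC were lower (-0.39 and -0.51). COL1A2 did not pass, with 202 reads in scrambled replicate 2 and 15 to 49 in the others. TWIST1 was at 0 in 5 of 6 libraries. The 7 markers summed to between 6900 and 7720 CPM with ALKBH5 siRNA and between 6408 and 6871 CPM with scrambled siRNA, and the part of this difference in the results below was not tested. Of 8 markers of epithelial, leukocyte and endothelial cells, 4 were tested: CDH1, an epithelial cadherin, was higher with 26, 30 and 24 reads with ALKBH5 siRNA, against 12, 12 and 8 with scrambled siRNA (edgeR adjusted p = 0.00148). PTPRC, the leukocyte antigen CD45, was lower with 18, 9 and 9 reads with ALKBH5 siRNA, against 21, 30 and 31 with scrambled siRNA (edgeR adjusted p = 0.0279). The PTPRC call was lost with DESeq2 and without ALKBH5 siRNA replicate 2 or 3 or scrambled replicate 2 or 3 (adjusted p 0.0711 to 0.0988). CD3E was at 0 in every library, and the sum of all 8 was 6.35 to 10.6 CPM with ALKBH5 siRNA and 7.74 to 8.70 CPM with scrambled siRNA. The part of CDH1 and PTPRC in the results below was not tested.

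The family went both ways. These are bulk libraries, in which fewer cells of a type and less RNA per cell cannot be told apart. With ALKBH5 siRNA, 6 of the 10 genes were higher (BCL2, BCL2L1, MCL1, BID, BAD and PMAIP1), 3 were lower (BCL2L2, BCL2L11 and BMF), and BAK1 did not pass at an adjusted p of 0.05. Calls were common throughout: 61.6% of all tested genes passed, 30.8% higher and 30.8% lower, so calls in 9 of 10 members have to be read against that background. The median log2 fold change was 0.37 over the members and 0.01 over all tested genes. By size the members ranged from PMAIP1, at the 94.0th percentile of absolute log2 fold change among all tested genes, and BMF, at the 91.4th, down to BAK1 at the 22.5th.

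**Figure D1:**
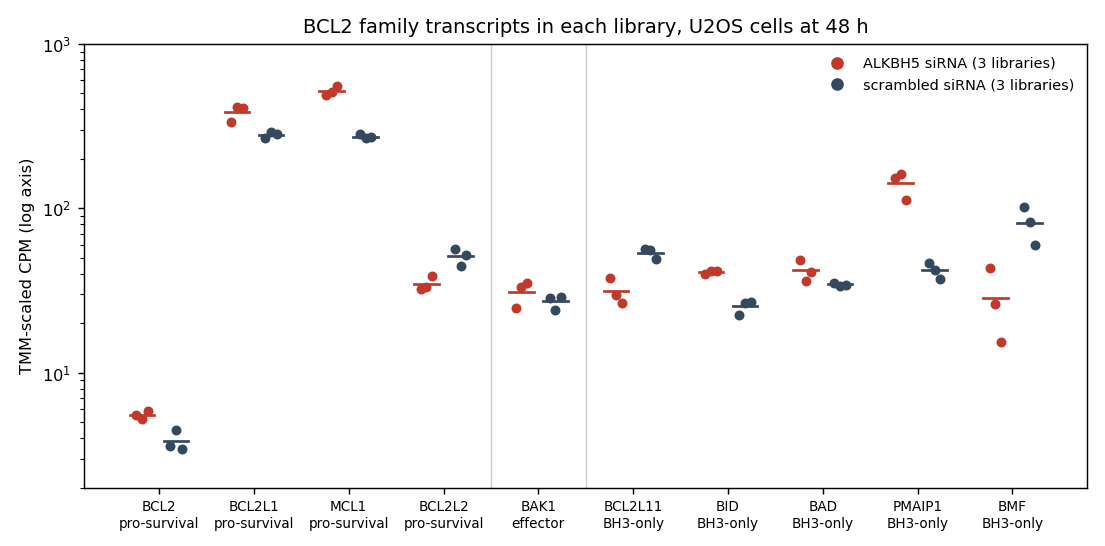
TMM-scaled CPM (log axis) of the 10 BCL2 family genes in each library, with ALKBH5 siRNA in red and scrambled siRNA in dark blue, 3 libraries each. Points are libraries and bars are group means. The 2 sets of points overlap for BAK1 and for no other member.

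Among pro-survival genes MCL1 showed the largest difference. Its protein, which turns over within a short time and depends on continuous synthesis, protects cells by binding BAK and BIM. MCL1 had 492, 507 and 552 CPM with ALKBH5 siRNA, against 282, 267 and 271 CPM with scrambled siRNA. Every knockdown library was above every scrambled one, and the spread within a group was small beside the gap. The level was 517 ± 31.1 CPM with ALKBH5 siRNA and 273 ± 8.02 CPM with scrambled siRNA (SD, n = 3 each), 1.89-fold higher (95% interval 1.69 to 2.12; log2 fold change 0.92, SE 0.07, adjusted p = 6.74e-07 in edgeR).

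BCL2L1, which encodes BCL-XL, rose by a smaller amount. It had 336, 416 and 406 CPM with ALKBH5 siRNA, against 267, 292 and 285 CPM with scrambled siRNA. The groups did not overlap, and the first knockdown library lay closest to the controls. The fold change was 1.37 (95% interval 1.20 to 1.57; log2 fold change 0.46, SE 0.09, edgeR adjusted p = 0.000809). An antisense transcript, ABALON, shares 1424 exon bases with BCL2L1 in GENCODE 29 and is not in the table used here. The strand setting of the counting is not given in the sources used here, so reads of the pair cannot be told apart.

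BCL2, the founding member, was scarcely expressed. It had 5.53, 5.26 and 5.89 CPM with ALKBH5 siRNA, or 108, 100 and 115 reads, against 3.58, 4.47 and 3.45 CPM with scrambled siRNA, or 86, 93 and 66 reads. The groups did not overlap, but counts this low carry more counting error than those of the other members. BCL2 was 1.45-fold higher (95% interval 1.11 to 1.90, edgeR adjusted p = 0.021). The call was lost without ALKBH5 siRNA replicate 3 (adjusted p = 0.0526), without scrambled replicate 1 (adjusted p = 0.077) and likewise without the third scrambled library (adjusted p = 0.0732).

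BCL2L2, which encodes BCL-W, fell, unlike the other pro-survival members. It had 32.5, 33.1 and 39.0 CPM with ALKBH5 siRNA, against 56.8, 44.9 and 52.0 CPM with scrambled siRNA. The highest knockdown library remained below the lowest scrambled one. The log2 fold change was -0.56 (SE 0.11, edgeR adjusted p = 0.00109), 1.47-fold lower. BCL2L2 shares 813 exon bases with the read-through gene BCL2L2-PABPN1, which is listed with 0 reads in every library. How reads on shared bases were counted is not given. The 0 therefore cannot show that the read-through is absent or that the BCL2L2 count is complete. On the opposite strand BCL2L2 shares 206 bases with PPP1R3E, which averaged 7.32 CPM with ALKBH5 siRNA and 4.71 CPM with scrambled siRNA.

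BAK1, the effector among the members, did not pass. It had 24.9, 33.0 and 35.0 CPM with ALKBH5 siRNA, against 28.6, 24.0 and 29.1 CPM with scrambled siRNA, and the groups overlapped because the first knockdown library fell among the controls. The log2 fold change was 0.19 (SE 0.14, edgeR adjusted p = 0.253), with a 95% interval of 0.926-fold to 1.40-fold, which includes no change and also increases as large as that of BCL2L1. Without ALKBH5 siRNA replicate 1 the log2 fold change was 0.33 and passed (adjusted p = 0.0371). BAK1 has 2 processed pseudogenes, BAK1P1 and BAK1P2, whose shared sequence makes its count uncertain.

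Among BH3-only genes PMAIP1 rose the most and had the largest fold increase of the 10 members. Its product NOXA binds MCL1 and speeds MCL1 degradation. PMAIP1 had 153, 162 and 112 CPM with ALKBH5 siRNA, against 46.9, 42.1 and 37.0 CPM with scrambled siRNA. The third knockdown library was the lowest of its group and still far above the controls. PMAIP1 was 3.39-fold higher (95% interval 2.73 to 4.21; log2 fold change 1.76, SE 0.14, edgeR adjusted p = 1.89e-06).

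BID rose as well. BID is the link by which caspase-8, once activated at death receptors, reaches mitochondria. It had 39.8, 41.4 and 41.7 CPM with ALKBH5 siRNA, against 22.5, 26.5 and 27.0 CPM with scrambled siRNA. The coefficient of variation of the knockdown libraries was 2.48%, the smallest of the members in that group. The fold change was 1.62 (95% interval 1.39 to 1.89, log2 fold change 0.70, SE 0.10, edgeR adjusted p = 8.83e-05).

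BAD, which survival kinases inactivate by phosphorylation, stood at the threshold. It had 48.6, 36.0 and 41.2 CPM with ALKBH5 siRNA, against 35.4, 33.9 and 34.4 CPM with scrambled siRNA. The lowest knockdown library was just above the highest scrambled one. The fold change was 1.21 (95% interval 1.02 to 1.44, edgeR adjusted p = 0.0499), and the call was lost when any library other than ALKBH5 siRNA replicate 2 was left out. Without ALKBH5 siRNA replicate 1 the log2 fold change was 0.16, against 0.28 with all libraries. BAD shares 404 exon bases with GPR137 on the opposite strand, and GPR137 was itself higher (81.8 CPM with ALKBH5 siRNA and 61.2 CPM with scrambled siRNA, edgeR adjusted p = 0.00293); its part in the BAD value was not tested.

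BCL2L11 and BMF fell. BCL2L11 encodes BIM, and BIM and BMF are both held on the cytoskeleton by dynein light chains until stress releases them. BCL2L11 had 37.8, 29.7 and 26.6 CPM with ALKBH5 siRNA, against 56.4, 55.5 and 48.9 CPM with scrambled siRNA. No knockdown library reached a scrambled one, and the level was 1.71-fold lower (log2 fold change -0.77, SE 0.13, edgeR adjusted p = 0.000237). On the opposite strand it shares 727 exon bases with MIR4435-2HG, a symbol that is not in the table used here.

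BMF showed the largest decrease and the widest spread. It had 43.4, 26.3 and 15.4 CPM with ALKBH5 siRNA, against 102, 83.2 and 60.3 CPM with scrambled siRNA. The groups did not overlap, although the libraries within each varied more than those of any other member, with a coefficient of variation of 49.8% with ALKBH5 siRNA and 25.7% with scrambled siRNA. BMF was 2.89-fold lower (log2 fold change -1.53, SE 0.39, edgeR adjusted p = 0.0149), with a 95% interval from 0.178 to 0.671 of the scrambled level. The call was lost when no filter on low counts was used (adjusted p = 0.0508). In both groups BMF fell in the order of the replicate numbers. With a term for replicate number in the edgeR model the SE was 0.12 and the adjusted p 2.82e-07. BMF-AS1, on the opposite strand, shares 461 exon bases with BMF and is not in the table used here.

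In 9 of the 10 members the libraries of the groups were fully apart in CPM, as in 67.4% of all tested genes. An exact 2-sided permutation test on CPM returned p = 0.1 for each of these members, which is the lowest p possible with 3 libraries a group, and p = 0.3 for BAK1.

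**Figure D2:**
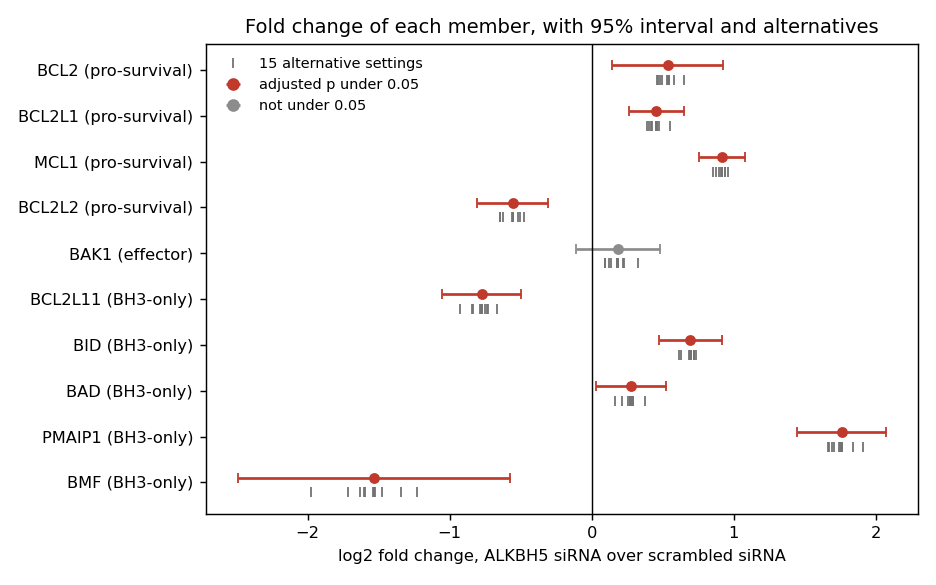
Log2 fold change of each member, ALKBH5 siRNA over scrambled siRNA, with its 95% interval (points and bars) and the same value under 15 alternative settings (grey ticks); red marks an adjusted p under 0.05 and grey the member that did not pass. PMAIP1 at 1.76 and BMF at -1.53 lie farthest from 0, the interval of BAK1 includes 0, and no tick lies on the other side of 0 from its point.

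Levels can be compared between genes only per length. CPM was divided by the length in kilobases of the longest coding transcript in GENCODE 29, an approximation because the transcripts made in these cells are not known. On this scale, CPM per kb, BCL2L1 and MCL1 dominated both groups: 148 ± 16.6 and 132 ± 7.92 with ALKBH5 siRNA, against 108 ± 4.80 and 69.6 ± 2.04 with scrambled siRNA (SD, n = 3 each). The libraries of BCL2L1 and MCL1 overlapped with ALKBH5 siRNA and were apart with scrambled siRNA. With the union of coding-transcript exons as the length, MCL1 (127) stood above BCL2L1 (116) in the knockdown group, so their order there depends on the length used.

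Behind them with ALKBH5 siRNA came PMAIP1 (73.1 ± 13.6 CPM per kb), BAD (36.2 ± 5.44), BID (16.4 ± 0.41), BAK1 (11.2 to 15.8 over its libraries), BCL2L2 (9.67 ± 1.00), BMF (6.05 ± 3.01), BCL2L11 (6.00 ± 1.10) and BCL2 (0.745 ± 0.042). BMF overlapped both BCL2L2 and BCL2L11, and the other neighbours in this order were apart in every library. With scrambled siRNA the order after MCL1 was BAD (29.9 ± 0.66 CPM per kb), PMAIP1 (21.6 ± 2.52), BMF (17.5 ± 4.49), BCL2L2 (14.2 ± 1.66), BAK1 (12.3 ± 1.28), BCL2L11 (10.2 ± 0.78), BID (10.1 ± 0.98) and BCL2 (0.514 ± 0.074). There, PMAIP1 overlapped BMF, BMF overlapped BCL2L2, BCL2L2 overlapped BAK1, and BCL2L11 overlapped BID. BMF was thus 8th with ALKBH5 siRNA and 5th with scrambled siRNA, and BID was 5th with ALKBH5 siRNA and 9th with scrambled siRNA. With union exon length BID was 8th with scrambled siRNA, ahead of BCL2L11, and BAK1 stood above BCL2L2 there.

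The make-up of each class differed between the groups. Of the summed CPM per kb of the 4 pro-survival genes, MCL1 held 45.5% ± 2.11 with ALKBH5 siRNA and 36.2% ± 1.31 with scrambled siRNA. BCL2L1 held 50.9% ± 2.32 with ALKBH5 siRNA and 56.1% ± 2.15 with scrambled siRNA, and BCL2L2 held 3.34% ± 0.23 with ALKBH5 siRNA and 7.41% ± 0.90 with scrambled siRNA. BCL2 stayed under 1% in every library. The sum itself was 290 ± 23.0 CPM per kb with ALKBH5 siRNA and 192 ± 1.41 with scrambled siRNA (SD, n = 3 each).

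Among the 5 BH3-only genes PMAIP1 took 52.9% ± 5.02 of the summed CPM per kb with ALKBH5 siRNA and 24.1% ± 0.87 with scrambled siRNA. BMF took 4.26% ± 1.66 with ALKBH5 siRNA and 19.4% ± 3.48 with scrambled siRNA, and BCL2L11 took 4.34% ± 0.36 with ALKBH5 siRNA and 11.5% ± 0.31 with scrambled siRNA. BAD held 26.5% ± 4.15 with ALKBH5 siRNA and 33.6% ± 2.44 with scrambled siRNA, and the share of BID was 12.1% ± 1.89 with ALKBH5 siRNA and 11.5% ± 1.95 with scrambled siRNA. The sum was 138 ± 17.8 CPM per kb with ALKBH5 siRNA and 89.3 ± 7.27 with scrambled siRNA. These shares and sums are descriptions and were not tested.

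**Figure D3:**
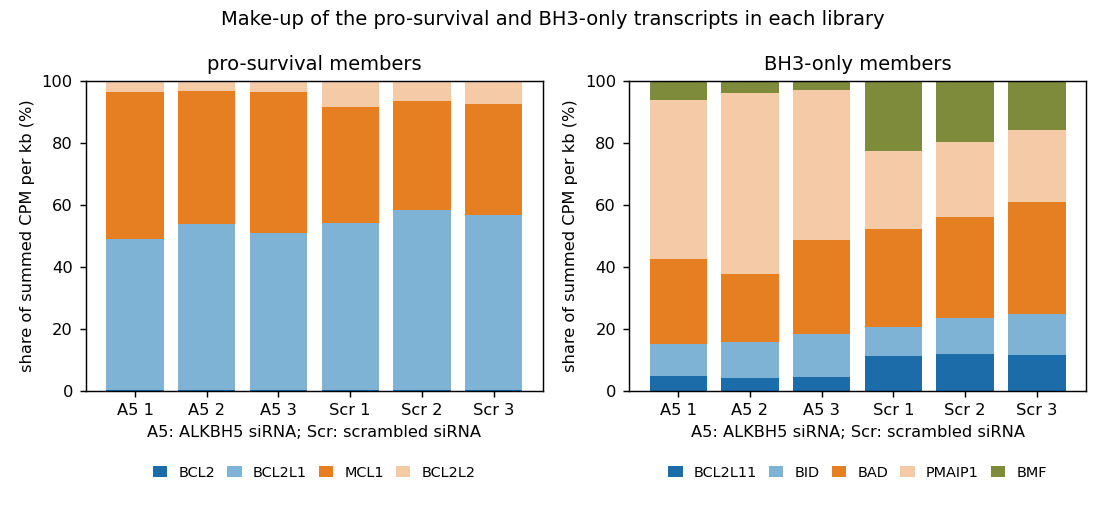
Share (%) of each gene in the summed CPM per kb of the pro-survival members (left) and of the BH3-only members (right), 1 bar per library, with the 3 ALKBH5 siRNA libraries (A5) left of the 3 scrambled siRNA libraries (Scr). PMAIP1 fills 48.7% to 58.4% of the BH3-only bar with ALKBH5 siRNA and 23.2% to 25.0% with scrambled siRNA.

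Ratios of reads between members within a library need no scaling between libraries. If the lengths of a pair are the same in both groups, the difference between groups can be read and the ratio itself cannot. Transcript forms are not separated in the counts, so this condition was not tested. MCL1 reads were 3.14 to 4.92 times those of its antagonist PMAIP1 with ALKBH5 siRNA, against 6.02 to 7.33 times with scrambled siRNA. The log2 ratio was 1.88 ± 0.36 with ALKBH5 siRNA and 2.71 ± 0.15 with scrambled siRNA (SD, n = 3 each), a difference of -0.83. The log2 ratio of MCL1 to BCL2L11 was 4.06 ± 0.34 with ALKBH5 siRNA and 2.35 ± 0.11 with scrambled siRNA, a difference of 1.70. MCL1 was thus lower relative to PMAIP1 and higher relative to BCL2L11, and neither pair of groups overlapped.

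BCL2L1 reads were 0.683 to 0.820 of MCL1 reads with ALKBH5 siRNA, against 0.947 to 1.09 with scrambled siRNA, and the groups did not overlap (difference in log2 ratio -0.47). The ratio of BCL2L1 to BAD overlapped between the groups, with log2 ratios of 3.21 ± 0.38 with ALKBH5 siRNA and 3.02 ± 0.10 with scrambled siRNA. So did that of BCL2L1 to BAK1, at 3.65 ± 0.11 with ALKBH5 siRNA and 3.37 ± 0.20 with scrambled siRNA. The difference for BCL2L1 to BAD was 0.18, and it was 0.39 without ALKBH5 siRNA replicate 1 and 0.023 without ALKBH5 siRNA replicate 2.

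**Figure D4:**
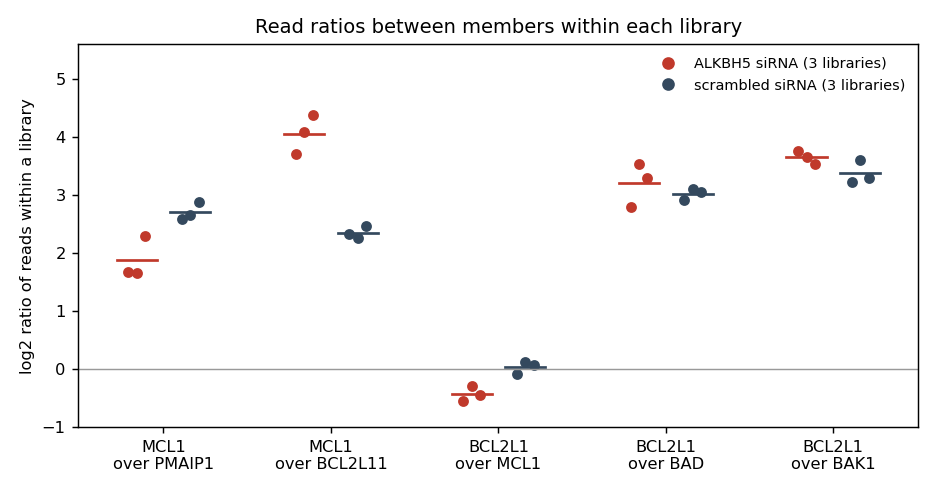
Log2 ratio of reads between pairs of members within each library, ALKBH5 siRNA in red and scrambled siRNA in dark blue, with points for libraries and bars for group means. MCL1 is lower relative to PMAIP1 (1.88 against 2.71) and higher relative to BCL2L11 (4.06 against 2.35) with ALKBH5 siRNA.

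The rest of the family was listed with 11 further genes, of which 8 were tested. Of these, 1 was higher (12.5%) and 4 lower (50%), beside 30.8% higher and 30.8% lower among all tested genes. Their median log2 fold change was -0.14. The higher count was 2 with no filter and 0 with a filter of 1 CPM in 3 libraries. BAX, the effector that pairs with BAK, had 135, 173 and 164 CPM with ALKBH5 siRNA, against 220, 220 and 241 CPM with scrambled siRNA. All knockdown libraries were below all scrambled ones (log2 fold change -0.53, SE 0.10, edgeR adjusted p = 0.000471), whereas BAK1 had a log2 fold change of 0.19 that did not pass. BBC3, which encodes the BH3-only protein PUMA, fell to 41.0 ± 1.27 CPM with ALKBH5 siRNA, against 55.8 ± 2.33 CPM with scrambled siRNA (log2 fold change -0.44, edgeR adjusted p = 0.000767).

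BCL2L13, a mitochondrial family member with a part in mitophagy, had a log2 fold change of -0.60 (edgeR adjusted p = 0.000256). The pro-survival gene BCL2A1 was the one that rose, from very few reads: 17, 23 and 45 with ALKBH5 siRNA, against 3, 2 and 10 with scrambled siRNA (edgeR adjusted p = 0.00237). BCL2L12 was also lower, while BOK, BIK and HRK did not pass. BCL2L14 was at 0 reads in every library, and BCL2L10 and BCL2L15 were below the filter with at most 1 and 7 reads.

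Enzymes that control the turnover of MCL1 and BH3-only proteins gave 2 higher (22.2%) and 4 lower (44.4%) genes of 9 tested. Their median log2 fold change was -0.08, and among all tested genes 30.8% were higher and 30.8% lower. Without scrambled replicate 3 the higher count was 1. FBXW7, the ubiquitin ligase subunit that recognises phosphorylated MCL1, had 16.9, 21.4 and 17.4 CPM with ALKBH5 siRNA, against 70.1, 73.5 and 69.6 CPM with scrambled siRNA. That is a log2 fold change of -1.94 (SE 0.11, edgeR adjusted p = 3.62e-08), larger in size than that of any member. USP9X, a deubiquitinase that stabilises MCL1, rose with a log2 fold change of 0.33 (edgeR adjusted p = 0.00291). USP13, another deubiquitinase of MCL1, and RBX1, the RING subunit of cullin ligases, fell with log2 fold changes of -0.53 and -0.49. HUWE1, a ligase that ubiquitinates MCL1, and MARCH5, a mitochondrial ligase, did not pass.

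Kinases, 14-3-3 proteins and dynein light chains that hold or modify BH3-only proteins gave 5 higher (22.7%) and 7 lower (31.8%) of 22 tested. This is near or below the 30.8% higher and 30.8% lower among all tested genes. The median log2 fold change was -0.17. The lower count was 11 with library totals and 11 without ALKBH5 siRNA replicate 2. MAPK3 (ERK1), a kinase whose pathway marks BIM for degradation, fell to 18.8 ± 0.97 CPM with ALKBH5 siRNA, against 54.0 ± 2.65 CPM with scrambled siRNA (log2 fold change -1.52, edgeR adjusted p = 1.01e-07). PIM3, one of the kinases that phosphorylate BAD, had a log2 fold change of -1.05, and YWHAQ, a 14-3-3 protein of the kind that holds phosphorylated BAD, had one of -0.79. RPS6KB1, which encodes the S6 kinase that can phosphorylate BAD, rose with a log2 fold change of 0.82 (edgeR adjusted p = 5.67e-06).

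Transcription factors known to act on member genes were split, with 5 higher (35.7%) and 4 lower (28.6%) of 14 tested. Both shares were near the 30.8% higher and 30.8% lower among all tested genes, and the median log2 fold change was 0.03. STAT3, an activator of MCL1 and BCL2L1 transcription in several cell types, had 381, 405 and 398 CPM with ALKBH5 siRNA, against 115, 119 and 110 CPM with scrambled siRNA (log2 fold change 1.79, SE 0.07, edgeR adjusted p = 5.24e-09). HIF1A, the oxygen-regulated factor, rose to 683 ± 62.9 CPM with ALKBH5 siRNA, against 358 ± 18.9 CPM with scrambled siRNA. E2F1, which can induce BH3-only genes, fell with a log2 fold change of -0.93, and FOXO3, a direct activator of BCL2L11, with one of -0.69.

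Partners at the outer mitochondrial membrane and factors released from mitochondria gave 3 higher (37.5%) and 1 lower (12.5%) of 8 tested. Their median log2 fold change was -0.07, and among all tested genes 30.8% were higher and 30.8% lower. With library totals 2 were higher and 3 lower, and without scrambled replicate 1 the lower count was 2, so the balance of this list depends on the scaling. VDAC2, the channel that brings BAK to the membrane, fell to 27.3 CPM with ALKBH5 siRNA, against 39.4 CPM with scrambled siRNA (edgeR adjusted p = 0.00158). VDAC1, another channel of that membrane, and DIABLO, which antagonises inhibitors of apoptosis, had log2 fold changes of 0.32 and 0.31. HTRA2, a protease that is also released, had one of 0.20 with an adjusted p of 0.0468, a call that was lost when any single library was left out.

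MCL1 had the smallest adjusted p among the members. The tested genes whose mean-centred log2 CPM over the 6 libraries lay closest to that of MCL1 were CCDC107, SUV39H1 and ZNF621, at Euclidean distances of 0.072, 0.102 and 0.110 on the log2 scale. Each was higher by a similar amount with ALKBH5 siRNA, with log2 fold changes of 0.91, 0.90 and 0.90, which is what the measure of likeness selects.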

How the data were processed

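The files hold raw read counts per gene symbol as the authors deposited them, with no normalisation. The 6 single-sample files and the series table agreed in every value, and 0 columns matched no sample. Build hg19 and the tools CASAVA 1.8.2, TopHat2, SAMtools and HTSeq are named in the submitters' processing notes. Their settings, the annotation and the strand option were not given in the sources used here. Summary lines (reads outside genes, ambiguous, not unique) entered neither library sizes nor tests; reads outside genes were 15.0% to 18.6% of uniquely placed reads, and ambiguous reads 0.737% to 0.856%.

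The test was that of edgeR 4.0.16, run under R 4.3.3 (filterByExpr, TMM, robust glmQLFit and glmQLFTest, 2-sided, group as the single term). P-values were adjusted with Benjamini-Hochberg over 14504 genes, threshold 0.05. Each edgeR SE was derived as the absolute log2 fold change divided by the square root of the test's F statistic. Intervals are 95% and use this SE with the test's degrees of freedom. Before the TMM factors (0.962 to 1.03) are applied, 1 CPM is 18.8 to 23.4 reads in a library. No library repeated another: between replicates the chi-square divided by its degrees of freedom was 5.96 to 16.3, above sampling noise. The script was tested on simulated counts in which 200 genes were changed. It called 62.7% of tested 1.5-fold changes, 85.1% of 2-fold ones and 96.9% of 4-fold ones. Of 179 calls, 17 were false. Far fewer genes changed there than were called in the data, so these rates need not hold here.

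Members and gene lists were chosen with earlier results of these data known. The text names the 10 members, ALKBH5, BAX, BBC3, up to 4 called genes per pathway or marker list with the smallest adjusted p, and the 3 genes closest to MCL1. Another gene that the rule names is not reported here. Other genes in the text were named after their values were seen. These were BCL2L12, BOK, BIK, HRK, BCL2L10, BCL2L14, BCL2L15, HUWE1, MARCH5, RUNX2, overlapping genes and markers that were not called. Transcript lengths and bases came from GENCODE 29 (GRCh38), which differs from the build of the counts, so no coordinate was joined to a count. Alternatives were RLE scaling, library totals, no filter, 1 CPM in 3 libraries, DESeq2 1.42.0, limma-voom (limma 3.58.1), no robust moderation, glmTreat, a replicate block and each library left out.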

Additional observations from a re-analysis of the deposited data

Results flagged for a closer look

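Reads placed uniquely outside genes are not used in any comparison of the members. They made up 17.9% of uniquely placed reads with ALKBH5 siRNA and 15.3% with scrambled siRNA (means, n = 3 each), higher in each knockdown library than in each scrambled one. Groups of 3 are too small for a test of single outlying libraries.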

How the results depend on the processing

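All 10 members kept their direction in all 15 alternatives. MCL1 and PMAIP1 stayed called in every one, with log2 fold changes of 0.85 to 0.96 and 1.66 to 1.91. Tested against a 1.5-fold change with glmTreat, 1891 genes were higher and 1710 lower, and of the members 2 (MCL1 and PMAIP1) were higher and 0 lower; of the members glmTreat gave 2 calls, edgeR's test against no change gave 9, and DESeq2 gave 9. The log2 fold changes that no longer passed under glmTreat were 0.54 for BCL2, 0.46 for BCL2L1, -0.56 for BCL2L2, -0.77 for BCL2L11, 0.70 for BID, 0.28 for BAD and -1.53 for BMF, with adjusted p-values of 0.0613 to 1.00. That test left 0 to 2 higher and 0 to 3 lower genes in each pathway list. BAD lost its call with library totals (0.21), no filter (0.27), limma-voom (0.27) and no robust moderation (0.28), and BMF with no filter (-1.54). With single libraries left out BCL2 ranged from 0.46 to 0.65, BAD from 0.16 to 0.38 and BAK1 from 0.092 to 0.33. The cause of these losses was not tested, and a fit with a library left out also holds fewer libraries. Library totals moved the median of all genes by -0.07 and gave 4019 higher and 4992 lower genes, against 4471 and 4466. The labels do not state pairs, and the main test did not use the replicate numbers. Same-numbered libraries of the groups deviated together to differing degrees (r of 0.058 to 0.351 over genes). By r, 5 of 6 libraries correlated best with their own number, so part of the spread within groups may go with that number. With the replicate block 6 members were higher and 3 lower, as without it, and 4865 genes were higher and 4895 lower. BMF was then at -1.60 with an SE of 0.12 (edgeR adjusted p = 2.82e-07), against 0.39 and 0.0149 without the block. The block also gave 12 lower genes in place of 7 among kinases, 14-3-3 proteins and dynein light chains. Among mitochondrial partners it gave 2 in place of 1. BCL2, at 66 to 115 reads per library, is the member that depth limits most.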
